A study of Mus musculus with 6 samples.

Results

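The genes described here encode the proteins of the mouse cytosolic ribosome. They were taken from the deposited gene table by name: every row whose Ensembl gene ID carries a symbol made of Rpl or Rps, a number and an optional a, l or x, together with Rpsa and the stalk proteins Rplp0, Rplp1 and Rplp2. Kinases and named pseudogenes were left out. This gave 84 genes of 56750 rows, 52 of the large and 32 of the small subunit. The annotation types 81 of them as protein-coding and 3 (Rps4l, Rpl6l and Rpl32l) as pseudogenes. They lie on 19 chromosomes, with 14 on chromosome 7.

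Messenger RNA was measured in hematopoietic stem and progenitor cells from the bone marrow of C57BL/6 mice, sorted as Lin- Sca1+ cKit+ (LSK) cells. A total of 3 mice carried colitis induced by dextran sulfate sodium (DSS, 2.5% for 5 days; DIC, for DSS-induced colitis) and 3 were controls, with 3 libraries in each group. Ages were not given in the labels used here. The libraries are called DIC 1, 2 and 3 and control 1, 2 and 4, after the numbers of the table's columns, and values are always given in that order.

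Each ribosome is built from a small subunit, which reads the message, and a large subunit, which joins the amino acids. A single copy of nearly every ribosomal protein goes into each particle, and proteins left without a place are quickly degraded. Their messages are among the most abundant of a growing cell and begin with a short run of pyrimidines, the TOP motif, through which the kinase mTOR and the binding protein Larp1 set their translation. In blood formation the dose of these proteins matters: loss of a single gene copy of several of them causes Diamond-Blackfan anemia, a failure of red cell production, and loss of RPS14 contributes to the 5q- syndrome.

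The promoters show what these genes share in sequence. RefSeq's table for GRCm38.p6 held 74 windows for 62 of the members, each from 250 bases before to 50 bases after a start site, and 32851 windows for all genes. Motifs were counted on both strands and could overlap one another. CCGGAA, the core bound by ETS-family factors, was in 45.9% of the members' windows and in 14.9% of all windows. TCTCGCGA was in 14.9% of the members' and 0.995% of all windows. CTCTTTC was in 27.0% and 8.16%. The letters TATAAA, the classical core promoter box, were in 9.46% and 13.6%. An unbroken run of at least 8 pyrimidines on the coding strand within 30 bases of the start was in 37 of the 74 members' windows and in 22.9% of all. The motifs were picked with the sequences in view, and a match is a description of letters only. The 6 stretches below, 3 from each subunit, show these motifs beside the start. Each runs from 70 bases before the start site to 20 bases from it on, and capital letters mark all but the TATAAA and pyrimidine matches, on either strand. They come from Rpl26 (chr11:68901496-68901585, plus strand), Rpl27 (chr11:101442175-101442264, plus strand), Rpl28 (chr7:4792895-4792984, plus strand), Rps27 (chr3:90213629-90213718, minus strand), Rps28 (chr17:33824543-33824632, minus strand) and Rps15a (chr7:118116128-118116217, minus strand).
Rpl26: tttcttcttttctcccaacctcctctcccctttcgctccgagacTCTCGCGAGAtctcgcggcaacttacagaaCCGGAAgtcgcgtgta
Rpl27: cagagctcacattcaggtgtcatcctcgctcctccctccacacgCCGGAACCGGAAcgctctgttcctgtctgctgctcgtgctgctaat
Rpl28: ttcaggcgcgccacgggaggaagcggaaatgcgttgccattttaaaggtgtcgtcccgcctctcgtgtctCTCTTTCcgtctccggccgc
Rps27: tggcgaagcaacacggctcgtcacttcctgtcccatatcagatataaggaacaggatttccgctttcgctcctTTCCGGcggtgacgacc
Rps28: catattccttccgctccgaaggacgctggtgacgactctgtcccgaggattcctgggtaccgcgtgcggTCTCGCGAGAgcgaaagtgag
Rps15a: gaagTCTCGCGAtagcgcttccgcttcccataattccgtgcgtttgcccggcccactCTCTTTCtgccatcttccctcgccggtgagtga

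Values are TPM, a transcript abundance, scaled by transcript length and to the same total in each library. Such values keep no sequencing depth, so no counting interval can be given and the number of libraries sets the precision. Between 20474 and 22720 genes lay above 0 in a library. The stem cell markers Kit (54.2 to 99.5 TPM), Ly6a, which encodes Sca1 (15.5 to 49.9 TPM), and Cd34 (63.9 to 129 TPM) were present in all 6 libraries. Slamf1 (0.80 to 1.18 TPM) and Mecom (0.07 to 2.97 TPM) were low throughout. Together 12 LSK and stem cell markers summed to 0.0366% to 0.0432% of TPM in DIC and 0.0485% to 0.0577% in the controls. Of 11 tested, 6 had a negative and 5 a positive log2 fold change (median -0.19). Messages of the neutrophil lineage were present as well, led by S100a8, S100a9 and the granule genes Ngp and Camp. The 16 markers on that list took 22.5%, 15.4% and 18.9% of TPM in the DIC libraries and 4.17%, 12.5% and 2.98% in the controls. All 16 had a positive log2 fold change, with a median of 2.07. In limma 0 were called and 16 had an unadjusted p under 0.05. The share of all tested genes higher at that threshold is not given. Late markers differed more among the DIC libraries: Retnlg was at 5102, 81.4 and 1953 against 63.7, 109 and 72.0 TPM and Mmp8 at 562, 13.3 and 197 against 6.78, 14.6 and 6.69 TPM, both lower in DIC 2 than in control 2. By the summed share control 2 stood apart from the other controls. In such bulk samples, fewer cells of a type and less RNA per cell cannot be told apart. The labels describe the replication only as 3 mice per group, and p-values therefore cover no more than the spread among these 6 libraries.

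Ribosomal protein messages took a smaller share of TPM in the DIC libraries than in any control. The 84 genes together held 4.82%, 5.46% and 5.64% of TPM in DIC 1, 2 and 3 and 8.65%, 6.10% and 8.17% in control 1, 2 and 4. That is 5.31% ± 0.43 in DIC and 7.64% ± 1.36 in the controls (SD, n = 3 each), with no overlap between groups and with control 2 only a little above DIC 3. A member of the ribosome counts as tested where it reached 1 TPM in at least 3 libraries. That held for 79 of the 84 members, 47 large and 32 small, among 13496 tested genes. All 79 had a negative log2 fold change (DIC minus control, on the log2(TPM + 1) scale), against 58.5% of all tested genes. Their median was -0.50, or -29.1% on the linear scale, against -0.08 over all tested genes and -0.29 over the 1490 tested genes with a mean of at least 100 TPM.

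No single member passed the test. In limma, with p-values adjusted over all tested genes, 0 of 79 members were called lower at 0.05, against 0.0222% of all tested genes, and the members' adjusted p-values ran from 0.212 to 0.472. At an unadjusted p under 0.05, 65 of 79 members were lower, against 13.8% of tested genes. For 56 of 79 the highest DIC value was under the lowest control value, against 18.4% of tested genes. These tests depended on control 2. Without control 2, 68 of 79 members were called lower, against 8.45% of all tested genes, and their median was -0.65. The count at an unadjusted p under 0.05 also moved with other libraries. It was 11 without DIC 1, 36 without DIC 2, 38 without DIC 3, 17 without control 1, 14 without control 4 and 78 without control 2. The share of all tested genes at that threshold is not given for these fits. These counts therefore cannot tell a change in the members from a change in all genes.

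**Figure D1:**
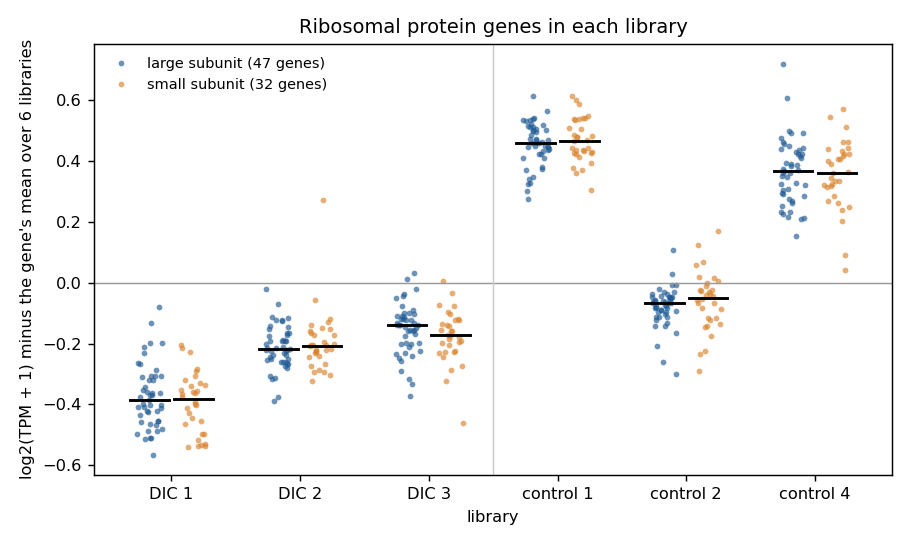
Level of each of the 79 tested ribosomal protein genes in each library, as log2(TPM + 1) minus the gene's own mean over the 6 libraries; points are genes, blue for the large and orange for the small subunit, and black lines are medians. The genes of both subunits lie close together in every library, lowest in DIC 1 and highest in control 1, with control 2 between the DIC libraries and the other controls.

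The order of the libraries was nearly the same from gene to gene. DIC 1 was the lowest of the 6 libraries for 66 of the 79 members, DIC 2 for 10, control 2 for 2 and DIC 3 for 1. Control 1 was the highest for 63 and control 4 for the other 16. Control 2 lay below both other controls for all 79. All DIC libraries lay below control 1 and control 4 for 78, with the exception of Rps4l, a low pseudogene-typed copy of Rps4x. Control 2 lay above every DIC library for 56. The shares of all tested genes with these orders are not given. The counts therefore do not show a pattern particular to the members.

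The neutrophil markers differed between the same libraries. Their share was highest in DIC 1, where ribosomal protein messages were lowest, and among the controls it was highest in control 2, where they were lowest. Other pairs did not line up in this way: DIC 2 held less of the neutrophil markers than DIC 3 and less of the ribosomal messages, and control 1 held more of both than control 4. When the neutrophil markers were taken out and the remaining TPM rescaled, the members held 6.22%, 6.45% and 6.96% in the DIC libraries and 9.03%, 6.97% and 8.42% in the controls. DIC 3 and control 2 were then nearly equal. The members' median log2 fold change was -0.29 after that removal, with the median of all tested genes at 0.10, and 28 members were lower at an unadjusted p under 0.05. The share of all tested genes lower at that threshold is not given for that fit. Adjusted for the neutrophil score in the model, the median was -0.09, close to that of all tested genes (-0.10). In that fit 63 of 79 members were negative, and 0 of 79 members had an unadjusted p under 0.05. The shares of all tested genes are not given for that fit, so these counts are not read as a result about the members. Group and neutrophil share moved together over the 6 libraries, and their parts in the result cannot be told apart.

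**Figure D2:**
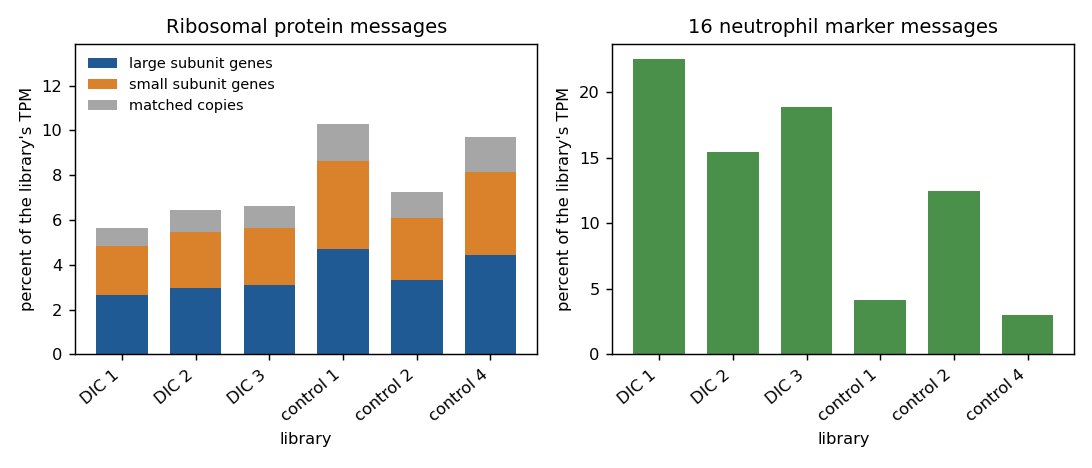
Left, percent of each library's TPM held by large subunit genes (blue), small subunit genes (orange) and matched copies of them at other loci (gray), stacked; right, percent held by 16 neutrophil marker genes. The ribosomal bars are shorter in DIC 1 to 3 than in control 1 and control 4, control 2 lies between them, and the neutrophil bars are tallest in the DIC libraries (22.5% in DIC 1) and shortest in control 1 and control 4 (2.98%).

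Marker sums of other cell types that a marrow sort could hold ranged from 0.0104% to 0.716% of TPM. Erythroblast markers summed to 0.0164% to 0.0686% of TPM in DIC and 0.0156% to 0.0226% in the controls, and 9 of 9 tested had a positive log2 fold change (median 0.98). Basophil and mast cell markers summed to 0.0314% to 0.0498% and 0.0946% to 0.337%, with 6 of 6 negative (median -1.53). Markers of the B lineage (6 of 6 negative, median -0.72) and of T and NK cells (5 of 5 negative, median -0.85) were at 0.0104% to 0.0192% and 0.131% to 0.179% in DIC and at 0.0207% to 0.0467% and 0.176% to 0.223% in the controls. Monocyte and macrophage markers were split, with 4 of 8 negative, at 0.484% to 0.514% and 0.448% to 0.716%. Single genes carried most of some sums: Nkg7 was at 1302, 1782 and 1483 against 1958, 1747 and 2206 TPM and the monocyte marker Ly6c2 at 4994, 4869 and 4754 against 6191, 4382 and 7026 TPM, while the other markers of T and NK cells reached at most 9.56 TPM. The basophil protease Prss34 was at 132, 169 and 209 against 864, 415 and 1800.2 TPM. No marker found on these lists was at 0 in all libraries. The part of these cell types in the ribosomal shift was not tested.

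The large and the small subunit had nearly equal fold changes. The 47 tested large subunit members had a median log2 fold change of -0.49 (range -0.70 to -0.24) and the 32 small subunit members one of -0.51 (-0.71 to -0.28). Large subunit messages held 2.64%, 2.98% and 3.09% of TPM in DIC and 4.71%, 3.32% and 4.45% in the controls. Small subunit messages held 2.18%, 2.48% and 2.56% in DIC and 3.94%, 2.78% and 3.72% in the controls. The ratio of large to small was 1.21, 1.20 and 1.21 in DIC and 1.19, 1.19 and 1.20 in the controls. These ratios did not overlap before rounding, but their difference was 0.01 on the log2 scale. With near-identical copies at other loci added (described further on), the ratio was 1.21, 1.18 and 1.19 in DIC and 1.19, 1.17 and 1.18 in the controls. These overlap, with a difference in mean ratio of 0.011, against 0.012 without the copies. An unadjusted p under 0.05 was reached by 39 large and 26 small subunit members, and without control 2 the medians were -0.65 and -0.64.

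The members were also alike among themselves. Their log2 fold changes had an SD of 0.10 over the 79 genes, against 0.54 over all tested genes and 0.57 over the 1490 with a mean of at least 100 TPM. Of the 79, 53 lay within 0.1 of the members' median. Limma's moderated SE of a member's fold change, once each library was centred on the members' median, had a median of 0.10. It draws on the spread of all tested genes and was at least 0.092 for every member. It therefore does not show whether the members differ by more than their own error.

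**Figure D3:**
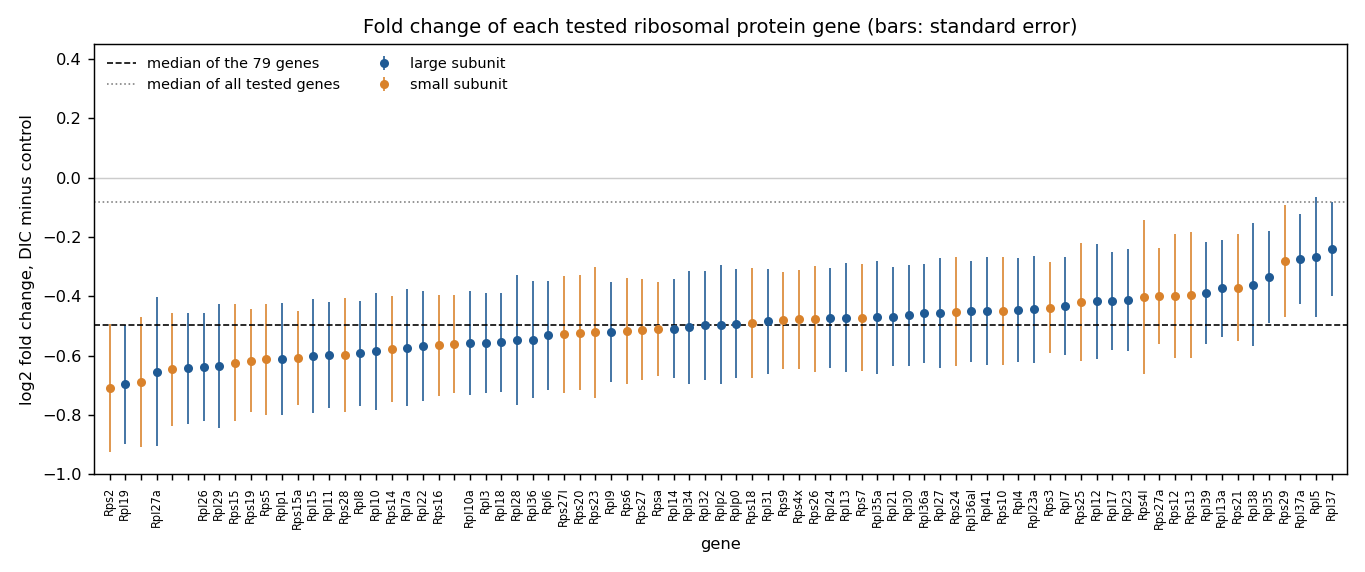
Log2 fold change, DIC minus control, of each tested ribosomal protein gene in order, with its standard error (not every point is labelled); blue is the large and orange the small subunit, the dashed line is the members' median and the dotted line the median of all tested genes. Every gene lies below 0, from -0.71 for Rps2 to -0.24 for Rpl37, and the subunits are mixed along the order.

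As levels, these were among the most abundant messages of the libraries. On the TPM scale 76 of the 84 members had a mean of at least 100 TPM over the 6 libraries, 20 had at least 1000, and 17 were among the 100 tested genes of highest mean. The median of the tested members was 719.5 TPM. The lowest tested mean was 36.2 TPM (Rpl12) in the large and 22.8 TPM (Rps4l) in the small subunit, and Rps25 had the highest mean of the small subunit, 2184 TPM. Part of the signal of low members such as Rpl12 lay in near-identical copies at other loci, described further on.

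Among the most abundant members of the large subunit, 3 were closely matched. Rpl13 was at 1318, 1574 and 1584 TPM in the DIC libraries and 2192, 1707 and 2347 TPM in the controls. Rpl32 was at 1325, 1459.6 and 1569 TPM in the DIC libraries and 2225, 1666 and 2305 TPM in the controls. Rpl41 was at 1372, 1466 and 1524 TPM in the DIC libraries and 2335, 1619.6 and 2070.2 TPM in the controls. In each of these 3 genes control 2 was the lowest control and still above DIC 3, the highest DIC library. Their control means of 2082, 2066 and 2008 TPM differed by less than their SDs of 334, 348 and 361. Rpl41 encodes the smallest protein of the ribosome, with a coding length of 75 bases, the shortest of the members. The log2 fold changes were -0.47, -0.50 and -0.45.

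Rpl19 and Rpl27a were among the large subunit members with the lowest fold changes. Rpl19 was at 661, 829 and 721 TPM in the DIC libraries and 1293, 915 and 1424 TPM in the controls. Control 4 was the highest library and the groups did not overlap, with a log2 fold change of -0.70 ± 0.20 (SE; limma, adjusted p = 0.212). Rpl27a, at 76.9, 92.3 and 83.6 TPM in the DIC libraries and 152, 88.1 and 175 TPM in the controls, had control 2 inside the DIC range and a log2 fold change of -0.65 ± 0.25 (SE; limma, adjusted p = 0.223). Near-identical copies at other loci, described further on, held 78.8% of the summed TPM of Rpl27a. With them added, control 2 (504 TPM) lay above every DIC library and the log2 fold change was -0.74. For the genes alone, Rpl26 had the lowest unadjusted p of the large subunit, 0.00957. Its protein sits near the exit of the tunnel through which the new chain leaves. It was at 607, 700.1 and 671 TPM in the DIC libraries and 1170.2, 804 and 1142 TPM in the controls, without overlap, with a log2 fold change of -0.64 ± 0.18 (SE; limma, adjusted p = 0.212).

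At the other end, Rpl37, Rpl5 and Rpl37a had the highest fold changes of the large subunit. Rpl37 was at 344, 293 and 372 TPM in the DIC libraries and 440.0, 334 and 421 TPM in the controls, and its log2 fold change was -0.24 ± 0.16 (SE; limma, adjusted p = 0.416). Control 2 lay among the DIC libraries, and controls 1 and 4 above them. Rpl5, which binds the 5S ribosomal RNA together with Rpl11, was at 83.8, 82.8 and 97.2 TPM in the DIC libraries and 131, 78.1 and 116 TPM in the controls, with control 2 the lowest of the 6 and a log2 fold change of -0.27 ± 0.20 (SE; limma, adjusted p = 0.472). Rpl37a was at 884, 813 and 954 TPM in the DIC libraries and 1195, 939.6 and 1077 TPM in the controls. Only DIC 3 exceeded control 2 there, and the log2 fold change was -0.27 ± 0.15 (SE; limma, adjusted p = 0.342). Each of these 3 was not called even without control 2 (adjusted p = 0.121, 0.0572 and 0.101 in limma). Rpl13a, known outside the ribosome for silencing inflammatory messages after interferon, did not overlap, at 594, 610.2 and 633 TPM in the DIC libraries and 935, 653 and 819 TPM in the controls, with a log2 fold change of -0.37 ± 0.16 (SE; limma, adjusted p = 0.253).

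In the small subunit, the most abundant members were Rps25, Rps18, Rps29 and Rps27. Rps25 was at 1759, 1811 and 1996 TPM in the DIC libraries and 2892, 1948 and 2698 TPM in the controls, where control 2 lay below DIC 3. Rps18 was at 1518, 1783 and 1797 TPM in the DIC libraries and 2730.3, 1974 and 2497 TPM in the controls, without overlap. The control means of 2513 ± 498 and 2400.5 ± 387 TPM (SD) for Rps25 and Rps18 differed by less than their spread. Their log2 fold changes were -0.42 and -0.49.

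Rps2 had the lowest fold change of all members. Rps2 (ENSMUSG00000044533), whose protein lines the entry channel of the message, was at 898, 1129.7 and 1041 TPM in the DIC libraries and 1955, 1243 and 1898 TPM in the controls. Controls 1 and 4 were far above the rest, control 2 was the next highest, and the log2 fold change was -0.71 ± 0.22 (SE; limma, adjusted p = 0.212). Without control 2 the log2 fold change of Rps2 was -0.92.

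The lowest unadjusted p of all members, 0.00596, belonged to Rps15a, at 313, 392 and 373 TPM in the DIC libraries and 643, 497 and 508 TPM in the controls. Controls 2 and 4 were close to each other here and well above DIC, so that the log2 fold change was -0.61 ± 0.16 (SE; limma, adjusted p = 0.212) and changed little without control 2 (-0.67). The small subunit members with the highest fold changes were Rps29, Rps21 and Rps13. Rps21 was at 299, 285 and 342 TPM in the DIC libraries and 508, 334 and 373 TPM in the controls, where DIC 3 passed control 2, with a log2 fold change of -0.37 ± 0.18 (SE; limma, adjusted p = 0.291). Rps13 was at 208, 229 and 228 TPM in the DIC libraries and 354, 207 and 337 TPM in the controls, where control 2 was the lowest of all 6 libraries, and its log2 fold change was -0.39 ± 0.21 (SE; limma, adjusted p = 0.328). Copies at other loci, described further on, held 70.7% of the summed TPM of Rps13. With them added its log2 fold change was -0.49.

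The stalk is the flexible arm of the large subunit that recruits the elongation factors. It is formed by Rplp0, which anchors it, and pairs of Rplp1 and Rplp2. Rplp0 was at 716, 868 and 849.7 TPM in the DIC libraries and 1351, 920.1 and 1186 TPM in the controls. Rplp1 was at 741, 848 and 883 TPM in the DIC libraries and 1456, 983 and 1387 TPM in the controls. Rplp2 was at 644, 877 and 824 TPM in the DIC libraries and 1256, 872 and 1192 TPM in the controls. The groups did not overlap for Rplp0 and Rplp1, while for Rplp2 control 2 lay just under DIC 2. The log2 fold changes were -0.49, -0.61 and -0.50, and 3 of 3 had an unadjusted p under 0.05, against 13.8% of all tested genes. All 3 were called lower without control 2 (limma, adjusted p = 0.0370, 0.0233 and 0.0492), against 8.45% of all tested genes.

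Of the members linked in people to Diamond-Blackfan anemia or the 5q- syndrome, 16 of 16 were tested and 16 had a negative log2 fold change, with a median of -0.49. None was called, 14 had an unadjusted p under 0.05, the groups did not overlap for 10, and 14 were called lower without control 2 (13.8%, 18.4% and 8.45% of all tested genes). The shares are close to those of the members as a whole. RPS19 is the gene most often mutated in that anemia. Rps19 was at 997, 1286 and 1233 TPM in the DIC libraries and 1996, 1572 and 1819.7 TPM in the controls, without overlap, and had a log2 fold change of -0.62 ± 0.17 (SE; limma, adjusted p = 0.212). Rps14, the gene of the 5q- region, was at 953, 1143 and 1147 TPM in the DIC libraries and 1761, 1321 and 1783 TPM in the controls, again without overlap, and had one of -0.58 ± 0.18 (SE; limma, adjusted p = 0.212). Rpl11, the partner of Rpl5 in the stabilisation of p53, was at 293, 347 and 349 TPM in the DIC libraries and 552, 392 and 572 TPM in the controls, without overlap, and had one of -0.60 ± 0.18 (SE; limma, adjusted p = 0.212).

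The place of control 2 varied among the rest of the anemia-linked members. Rps28 was at 952, 1163 and 1177 TPM in the DIC libraries and 1877, 1317 and 1827 TPM in the controls with a log2 fold change of -0.60 ± 0.19 (SE; limma, adjusted p = 0.212). Rps26 was at 556, 612 and 659 TPM in the DIC libraries and 998, 676 and 896 TPM in the controls with one of -0.48 ± 0.18 (SE; limma, adjusted p = 0.221). Rpl35a was at 769, 789.6 and 836 TPM in the DIC libraries and 1330.3, 850.0 and 1195 TPM in the controls with one of -0.47 ± 0.19 (SE; limma, adjusted p = 0.235). In all 3 the groups did not overlap, and control 2 was the control nearest to DIC. In Rps24 (621, 646 and 742 against 1052, 720.1 and 1005 TPM), Rps7 (396, 392 and 465 against 644, 452 and 662 TPM) and Rps10 (437, 506 and 480.3 against 743, 501 and 726 TPM) the highest DIC library passed control 2. Their log2 fold changes were -0.45, -0.47 and -0.45. Rpl15 (475, 484 and 577 against 878, 596 and 883 TPM) did not overlap and had a log2 fold change of -0.60.

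Several ribosomal proteins have a second gene, and for some the second gene is used by a particular tissue. Among 13 such paralogous members, 10 were tested, 10 had a negative log2 fold change (median -0.49), 0 were called and 8 had an unadjusted p under 0.05. Of all tested genes, 13.8% were lower at that threshold. Rps27 was at 1071, 1283 and 1352 TPM in the DIC libraries and 1813, 1528 and 1945 TPM in the controls. Its p53-inducible paralog Rps27l was at 564, 575 and 621 TPM in the DIC libraries and 1022, 635 and 929 TPM in the controls. Both were without overlap, with log2 fold changes of -0.51 ± 0.17 (SE; limma, adjusted p = 0.212) and -0.53 ± 0.20 (SE; limma, adjusted p = 0.220). Rpl36a was at 327, 390.1 and 367 TPM in the DIC libraries and 585, 406 and 512 TPM in the controls. Rpl36al was at 636, 678 and 787 TPM in the DIC libraries and 1032, 787 and 1069 TPM in the controls. The DIC values of Rpl36al reached control 2, and the log2 fold changes were -0.46 and -0.45. The coding sequences within both pairs differ. Reads of Rpl36a and Rps27 are still not unique, since Rpl36a-ps2 and Rps27rt match them at 100% identity over the aligned stretch, and copies held 32.6% of the summed TPM of Rpl36a and 10.7% of that of Rps27. Rps27 and Rps27l are 76.2% identical over 252 bases, and Rpl36a and Rpl36al 87.7% over 318 bases, by position with no gaps. The first 90 coding bases of each follow, with capitals where the paralogs differ, from the GENCODE transcripts of GRCm38.
Rps27: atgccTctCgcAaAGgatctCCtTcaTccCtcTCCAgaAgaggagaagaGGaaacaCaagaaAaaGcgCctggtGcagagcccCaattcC
Rps27l: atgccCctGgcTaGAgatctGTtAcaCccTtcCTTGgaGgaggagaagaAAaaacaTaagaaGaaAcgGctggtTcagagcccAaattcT
Rpl36a: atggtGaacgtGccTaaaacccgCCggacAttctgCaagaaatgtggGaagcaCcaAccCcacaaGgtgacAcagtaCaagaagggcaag
Rpl36al: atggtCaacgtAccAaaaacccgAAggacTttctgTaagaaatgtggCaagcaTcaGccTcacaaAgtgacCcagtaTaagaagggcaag

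For the pairs of Rpl3, Rpl10, Rpl39 and Rps4x, 1 gene was far above the other. Rpl3 was at 667, 770.1 and 758 TPM in the DIC libraries and 1221, 881 and 1158 TPM in the controls. Rpl10 was at 678, 730.4 and 825 TPM in the DIC libraries and 1314, 854 and 1228 TPM in the controls. Rpl39 was at 370.0, 366 and 433 TPM in the DIC libraries and 612, 416 and 519.8 TPM in the controls. Their paralogs Rpl3l, of striated muscle, and Rpl10l and Rpl39l, of male germ cells, were not tested. Rpl3l was listed at 0.67 to 2.41 TPM, Rpl39l at 0.33 to 1.82 TPM and Rpl10l at 0 in all 6 libraries. An exact 0 in such a table can be a failed estimate. Rps4x was at 515, 568 and 603 TPM in the DIC libraries and 889, 637 and 840.5 TPM in the controls. Rps4l was far lower, at 16.3, 26.8 and 15.7 TPM in the DIC libraries and 33.9, 21.4 and 22.7 TPM in the controls, and its groups overlapped. Rpl22, whose product is needed for T cell development, was at 224, 219.9 and 269 TPM in the DIC libraries and 409, 273 and 389 TPM in the controls, with a log2 fold change of -0.57 ± 0.18 (SE; limma, adjusted p = 0.212). Its paralog Rpl22l1, whose symbol falls outside the naming rule, was at 214, 197 and 243 TPM in the DIC libraries and 332, 218 and 326 TPM in the controls. The pseudogene-typed Rpl32l (0 to 0.46 TPM) and Rpl6l also went untested. Rpl6l was at 8.95 TPM in DIC 3 and at most 1.03 TPM elsewhere, so its value rests on 1 library.

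Ribosomal protein genes have more processed pseudogenes, copies made from the message, than almost any other family, and reads of such a copy and of its parent can be hard to assign. The transcripts of 1130 loci outside the members matched 78 members at 90% identity or more over at least 50% of their length. Of these, 526 were at 0 in every library, and 120 were tested. Among the tested copies 93 had a negative log2 fold change, against 58.5% of all tested genes, and the median was -0.30. Only 22 had a mean of at least 100 TPM, and those held 91.8% of all the copies' TPM. Of the 22, 20 were fully identical to their member over the aligned stretch and 22 had a negative log2 fold change. The copies took 0.838% to 1.00% of TPM in DIC and 1.15% to 1.62% in the controls.

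For 10 members the copies held over 50% of the summed TPM. Rpl12 itself was at 27.1, 34.9 and 29.9 TPM in the DIC libraries and 44.7, 31.5 and 49.1 TPM in the controls. Its copy Gm10275 was at 506, 638 and 578 TPM in the DIC libraries and 1133, 699.7 and 983 TPM in the controls. Rpl5 was given above, at 78.1 to 131 TPM, while its copy Gm15500 was at 550.1, 557 and 613 TPM in the DIC libraries and 975, 632 and 842 TPM in the controls. The copy of Rps29, Gm14303, was at 1373, 1902 and 1705 TPM in the DIC libraries and 2862, 2314 and 2953 TPM in the controls. Rps29 itself was at 1389, 1373 and 1607 TPM in the DIC libraries and 2056, 1419 and 1889 TPM in the controls. In all 3 the copy was above its parent in every library, except for Rps29 in DIC 1. The coding sequences of Rps29 (168 bases), Rpl12 (495) and Rpl5 (891), without the stop codon, stand letter for letter in the transcripts of these copies. No read inside these stretches can be assigned by sequence.

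The levels of identical copies of Rpl27 changed relative to each other from library to library. Rpl27 has the copies Gm11518, at 507, 315 and 593 TPM in the DIC libraries and 759, 348 and 898 TPM in the controls, and Rpl27-ps3, at 24.1, 262 and 6.01 TPM in the DIC libraries and 282, 404 and 8.62 TPM in the controls. The second was high in DIC 2, control 1 and control 2 and low in the other 3 libraries. In those 3 the first was higher than in DIC 2 and control 2. In control 1 the first was high as well, at 759 TPM. How reads were divided between the copies was not tested. Their sum was 531, 577 and 599 TPM in DIC and 1041, 752 and 907 TPM in the controls, a steadier set of values, close in order to those of Rpl27 itself (214, 240.2 and 249 against 397, 248 and 336 TPM).

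Adding the copies to their parents, an alternative chosen after the values were seen, changed the values of single members but not of the group. The median was -0.51 and the SD over members 0.09, and 57 members lay within 0.1 of the median. Of 23 members with over 10% of their sum in copies, 10 came closer to the median and 16 became more negative. Rps29 went from -0.28 to -0.52, Rpl37 from -0.24 to -0.55 and Rpl5 from -0.27 to -0.46. Rpl38 went from -0.36 to -0.58, Rps12 from -0.40 to -0.65 and Rpl12 from -0.42 to -0.68. All 6 had been above the members' median. Rpl37a and Rpl35 were left as the highest, at -0.27 and -0.26. Rpl27a, at -0.65 alone, became the lowest at -0.74. Over all members 0 were called, 71 had an unadjusted p under 0.05 and were lower, against 13.8% of the tested genes, and every DIC value was under every control value for 66, against 18.5%.

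**Figure D4:**
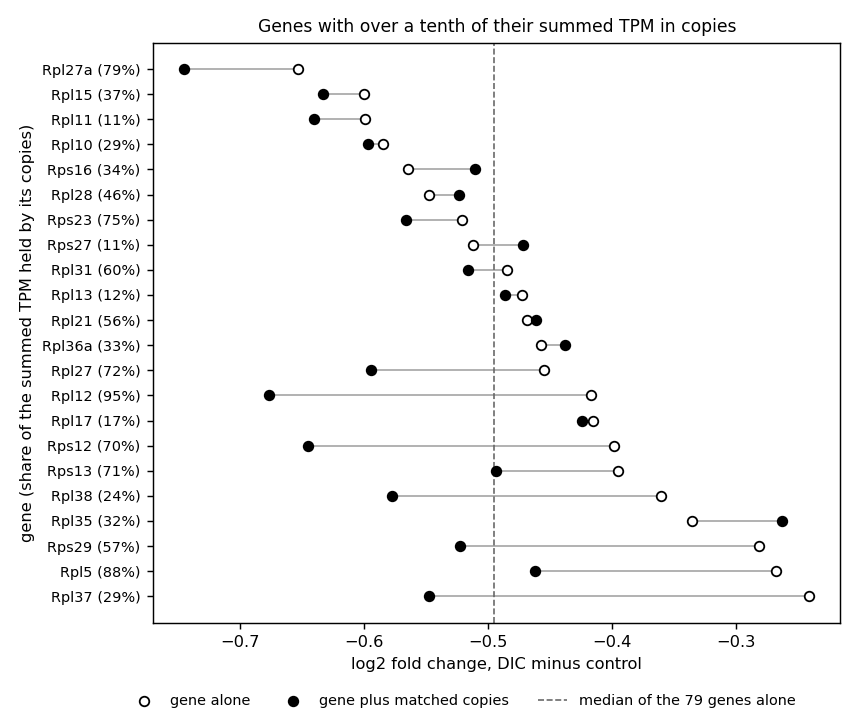
Log2 fold change, DIC minus control, of 22 of the 23 tested members with over 10% of their summed TPM in matched copies (1 is not drawn), for the gene alone (open) and with its copies added (filled); the percent beside each name is the copies' share of the sum. Rpl37, Rpl5, Rps29 and Rps12 became more negative, while Rpl35 moved the other way.

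To see which members departed from the rest, each library was centred on the median of its tested members. No member then had an unadjusted p under 0.05 in limma, against 26.4% of all tested genes, 0 were called, and the lowest p was 0.0614, for Rps29. Both shares are set in part by the scaling: centring takes away the members' common shift by construction and moves the median of all tested genes to 0.42, so nothing is read from their difference. The groups did not overlap for 7 members below and 3 above the median, or 12.7% of the members. Over all tested genes the share was 31.3% in either direction, and the centring sets these shares in part too. Only such members are given next, as a description, since none had an unadjusted p under 0.05 in limma. Rps2 was at -0.21 relative to the members and Rpl26 at -0.13. Above the median were Rpl5 at 0.23, Rps29 at 0.22 and Rpl13a at 0.13. Rpl37 (0.26) and Rpl37a (0.23) were as high, but their groups overlapped. With the copies added the departures of Rpl5 and Rps29 were 0.05 and -0.01, while those of Rps2 (-0.20) and Rpl13a (0.14) were little altered.

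Properties of the messages tracked the small differences only weakly. Across the 78 members with a coding sequence, which are not independent replicates and share their libraries, GC content of the coding sequence (44.9% to 61.6%) and log2 fold change had a Pearson r of -0.26 and a Spearman rho of -0.31. For coding length the values were -0.19 and -0.24, and for mean TPM over the 79 tested members -0.20 and -0.24. Over 11078 tested protein-coding genes the rho was -0.096 for coding GC and 0.27 for coding length. Within single libraries the rho of coding GC with the centred level ran from -0.45 in DIC 1 to 0.41 in DIC 2, so that libraries of one group went opposite ways.

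The rest of the translation machinery was looked at from lists chosen by function, with earlier results of these data known. Of 7 ribosomal proteins whose symbols fall outside the naming rule, 7 had a negative log2 fold change (median -0.40) and 3 an unadjusted p under 0.05. Beside these lists, 58.5% of all tested genes had a negative log2 fold change and 13.8% were lower at an unadjusted p under 0.05. Rack1, a scaffold on the small subunit, was at 462, 546 and 551 TPM in the DIC libraries and 925, 619 and 829 TPM in the controls. Fau, which encodes Rps30 fused to a ubiquitin-like protein, was at 301, 393 and 363 TPM in the DIC libraries and 612, 405 and 519.6 TPM in the controls. Both were without overlap, at log2 fold changes of -0.59 and -0.53. Rps3a1 had one of -0.43. For Rpl7l1 (92.9, 95.8 and 90.9 against 98.5, 108 and 76.0 TPM) and Rps27rt (171, 139 and 196 against 205, 177 and 148 TPM) the groups were mixed.

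Of 19 elongation factors and other TOP messages, 19 had a negative log2 fold change, with a median of -0.47. None was called, 15 had an unadjusted p under 0.05, and 16 were called without control 2, against 8.45% of all tested genes. Eef1b2, the exchange factor of the elongation factor Eef1a1, was at 237, 295 and 273 TPM in the DIC libraries and 519.8, 333 and 499 TPM in the controls, with a log2 fold change of -0.72 ± 0.20 (SE; limma, adjusted p = 0.212). The initiation factor subunits Eif3f (58.2, 76.1 and 65.5 against 109.5, 83.1 and 113 TPM) and Eif3k (205, 240.3 and 221 against 323, 273 and 324 TPM) had log2 fold changes of -0.60 and -0.46. The groups did not overlap for these 3 genes either.

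The median of the ribosome biogenesis genes was closer to 0. Of 35, 31 had a negative log2 fold change, the median was -0.34, 0 were called and 9 had an unadjusted p under 0.05. Fbl, the methyltransferase of ribosomal RNA, was at 112, 113 and 119 TPM in the DIC libraries and 232, 144 and 209 TPM in the controls, with a log2 fold change of -0.74 ± 0.18 (SE; limma, adjusted p = 0.212). The assembly factors Nip7 and Nob1 were at 24.0, 28.7 and 26.7 against 46.1, 36.7 and 39.6 TPM and 32.1, 34.9 and 40.4 against 62.0, 45.9 and 57.1 TPM, with log2 fold changes of -0.60 and -0.60. All 3 were without overlap. Of 12 genes that control the translation of TOP messages, 11 had a negative log2 fold change, with a median of -0.25. Larp1, which binds the TOP motif, was at 33.1, 37.0 and 36.4 TPM in the DIC libraries and 57.4, 40.5 and 44.6 TPM in the controls, and Akt1s1 at 17.6, 17.4 and 22.9 against 26.9, 22.7 and 27.0 TPM. Mlst8, a subunit of the mTOR complexes, had a positive log2 fold change, at 28.0, 31.8 and 25.6 TPM in the DIC libraries and 16.8, 24.1 and 14.0 TPM in the controls with 0.64 ± 0.21 (SE; limma, adjusted p = 0.212).

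The mitochondrion has a separate ribosome, whose proteins are encoded by other nuclear genes. Of 78 Mrpl and Mrps genes, 78 were tested and 78 had a negative log2 fold change, with a median of -0.41. None was called, and 42 had an unadjusted p under 0.05, against 13.8% of all tested genes. The groups did not overlap for 47, against 18.4%, and 37 were called lower without control 2, against 8.45%. Their summed share of TPM was 0.579%, 0.622% and 0.637% in DIC and 0.921%, 0.667% and 0.858% in the controls, in the same order of libraries as the cytosolic genes. The messages encoded in the mitochondrial genome did not follow it, at 3.22%, 7.20% and 3.64% in DIC and 4.22%, 6.47% and 5.39% in the controls.

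The size of the shift depended on how the libraries were brought to a common scale. The pseudocount, the filter on low values and the variance trend left the members' median between -0.50 and -0.49. Quantile normalization gave -0.22, with the median of all tested genes at -0.04, and leaving out single libraries gave -0.65 to -0.39. In every one of these settings the members' median lay below that of all tested genes, except after adjustment for the neutrophil score.

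**Figure D5:**
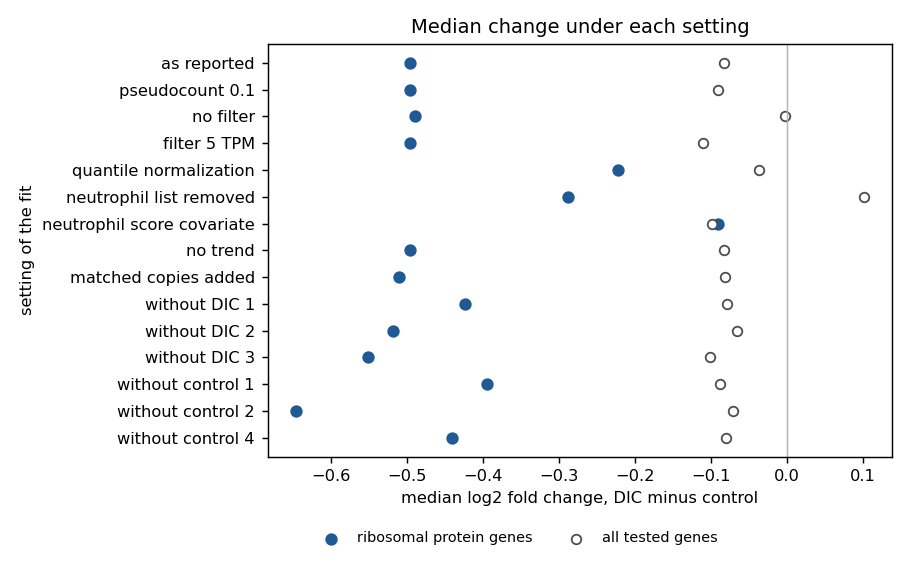
Median log2 fold change, DIC minus control, of the tested ribosomal protein genes (filled) and of all tested genes (open) under each setting of the fit. The filled points lie between -0.65 and -0.22 except after adjustment for the neutrophil score, where both medians are close to -0.10.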

How the data were processed

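LSK cells from 3 mice with DSS-induced colitis and 3 control mice were profiled by RNA sequencing. The authors deposited 1 table of TPM values for 56750 rows and 6 libraries, rounded to 2 decimals, and each column sums to about 1000000. The submitters' processing notes name fastp 0.19.5, HISAT2 2.1.0, StringTie 2.1.2 and GRCm39, and no source used here gives the release of the annotation. StringTie divides reads among near-identical loci, which makes single values of genes with copies uncertain.

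Symbols came from GENCODE annotation of GRCm38 by Ensembl ID (52081 matched, 4669 did not); promoter coordinates are RefSeq's for GRCm38.p6 and were not joined to the table's build. Columns for control 1 and control 4 were tied to their group but not to single samples. The comparison, DIC minus control, was fitted as log2(TPM + 1) for genes reaching 1 TPM in 3 or more libraries, by limma 3.58.1 (R 4.3.3, variance trend on), two-sided tests and Benjamini-Hochberg adjustment over 13496 genes at a threshold of 0.05; SE denotes limma's moderated standard error, and SD is over the 3 libraries of a group. Sums, ratios and medians over the members carry no p. The fit was tested on simulated data with larger changes than the members' and with errors drawn separately for each gene. A shift of the members' size that many genes share was not simulated. The 15 correlations between pairs of libraries (0.907 to 0.964) showed no repeated library.

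Copies were found with blastn 2.17.0, matching each transcript of a non-member locus (pseudogene or protein-coding) to the members' transcripts. Named members were, in each subunit, the 4 highest in mean TPM, the 3 lowest and 3 highest fold changes and the 3 lowest p, with untested members, stalk proteins, paralogs, the anemia-linked members and the 4 largest departures each way after centring on the members' median; other lists gave up to 3 genes by lowest p. Rpl12, Rpl35, Rpl38, Rps12, Slamf1 and Mecom and the copies were named after their values were seen. The members and lists were chosen with earlier results of these data known. Alternatives were the pseudocount, the filter, quantile normalization, removal of or adjustment for neutrophil markers, the trend and leaving out each library. Some members and 1 sequence are not reported here.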

Additional observations from a re-analysis of the deposited data

How the results depend on the processing

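Called members numbered 0 under every alternative except the fit without control 2. That fit called 68 of the 79 members lower, against 8.45% of all tested genes. Leaving out each library in turn thus gave 0 to 68. The members' median log2 fold change was -0.65 (without control 2) to -0.39 (without control 1) over those 6 fits. It was -0.22 with quantile normalization and -0.091 after adjustment for the neutrophil score. Removal of the neutrophil markers gave -0.29, which is also outside the range of those 6 fits. The pseudocount, the filter, the trend and the added copies (-0.51) left the median within that range. The DIC minus control difference in the members' share of TPM was -2.33 percentage points, -1.59 with the neutrophil markers removed and -3.10 to -1.82 over the left-out libraries. Of 45 named members tested, 38 were called lower without control 2, beside the same 8.45% of all tested genes. After adjustment for the neutrophil score, log2 fold changes were positive for 16 of the 79 members, among them Rps12 (0.23), Rpl12 (0.22), Rpl38 (0.13), Rpl27 (0.0037), Rpl27a (0.18), Rpl5 (0.17), Rplp2 (0.088), Rps10 (0.073), Rps13 (0.22), Rps29 (0.030) and Rps4l (0.19). With quantile normalization they became positive for Rpl37 (0.054) and Rpl37a (0.056). The share of all tested genes with a positive value is not given for either fit. No paired analysis was possible because the groups share fewer than 2 replicate numbers that can be tied to single samples. Where a library is left out, its group rests on 2 libraries. TPM keeps no depth, so the precision of low members such as Rps4l cannot be stated from the table, and a change in the share of these messages does not give their number per cell.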
